A study of Mus musculus with 2 samples.

Results

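The genes described here encode the chains of the interleukin-3 (IL-3) receptor and the proteins that act directly beneath it. They are the receptor chains Il3ra, Csf2rb and Csf2rb2, the kinases Jak1 and Jak2, the transcription factors Stat5a and Stat5b, the phosphatases Ptpn6 and Ptpn11, and the adaptor Gab2. They were chosen by name, as probe sets annotated with 1 of these symbols alone, and all 10 were measured, among 19935 genes in all. The arrays came from Ba/F3 cells, a mouse pro-B-like line that depends on IL-3, expressing BCR-ABL, the fusion kinase of chronic myeloid leukaemia. Both cultures carried constitutive BCR-ABL, were grown in RPMI medium with 10% FBS and are listed with the ABL kinase inhibitor imatinib (5 µM, 6 h). They differed in the IL-3 supplement, with which the submitters describe the cells as resistant to imatinib and without which they describe apoptosis. Each condition had 1 array, and the titles call both samples live. The number of clones and cultures behind the arrays is not given in the sources used here.

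The array with IL-3 is named so in its title and source name, but its description gives growth without IL-3, and that of the other sample has a source name that may also be read as lacking imatinib. Directions below follow the titles, and swapped labels would turn every sign. If the sample without IL-3 also lacked imatinib, every difference would combine IL-3 with imatinib. Values were read as log2 values from which a baseline had been subtracted probe set by probe set. They therefore carry no expression level, so no gene is called more or less abundant than another and the B-lineage markers could not be used to check the identity of the line. With 1 array per condition there is no replicate error and no test, and precision is limited by the number of arrays. As a guide to measurement scatter, the array difference of a probe set scattered around the mean of its gene with a pooled SD of 0.14, over 998 genes with more than 1 probe set (the probe set SD below). Each gene described here had 1 probe set, so none had a second reading. Over all genes the difference, with IL-3 minus without IL-3, centred on a median of 0.04, and its robust spread, the scaled median absolute deviation, was 0.17.

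IL-3 binds a specific alpha chain, encoded by Il3ra, which then pairs with a beta chain that carries the signal. The mouse has a beta chain shared by the receptors for IL-3, IL-5 and GM-CSF, encoded by Csf2rb, and a closely related chain that serves IL-3 alone, encoded by Csf2rb2. Neither chain has kinase activity: JAK2, bound to the beta chain, phosphorylates it and so recruits STAT5, the phosphatases SHP1 and SHP2 and adaptors such as GAB2. BCR-ABL also activates STAT5 and uses GAB2.

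Start-site sequences of 4 of the genes are shown: the receptor chains Il3ra and Csf2rb2 and the kinase Jak2, each lower by 1.2-fold or more with IL-3, and the phosphatase Ptpn6, higher by 1.2-fold or more. They are the RefSeq promoter windows of build GRCm38.p6, from 250 bases before to 50 after the gene start, given 5′ to 3′. Windows were held for 8 of the 10 genes, and these were 10 windows, since Stat5a and Stat5b each had a second. Csf2rb and Gab2 had no entry. Capitals mark the STAT motif TTCNNNGAA in Csf2rb2 and the GC box GGGCGG, read on both strands, in the other sequences. The windows are chr14:14346245-14346544 on the plus strand for Il3ra, chr15:78305672-78305971 on the minus strand for Csf2rb2, chr19:29251553-29251852 on the plus strand for Jak2 and chr6:124738660-124738959 on the minus strand for Ptpn6.
Il3ra: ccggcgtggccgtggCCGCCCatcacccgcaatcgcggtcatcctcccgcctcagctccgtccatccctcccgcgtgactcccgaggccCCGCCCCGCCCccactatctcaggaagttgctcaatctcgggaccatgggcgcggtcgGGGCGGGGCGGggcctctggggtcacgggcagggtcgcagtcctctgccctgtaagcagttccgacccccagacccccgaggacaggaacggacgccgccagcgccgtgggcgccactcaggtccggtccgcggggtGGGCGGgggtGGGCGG
Csf2rb2: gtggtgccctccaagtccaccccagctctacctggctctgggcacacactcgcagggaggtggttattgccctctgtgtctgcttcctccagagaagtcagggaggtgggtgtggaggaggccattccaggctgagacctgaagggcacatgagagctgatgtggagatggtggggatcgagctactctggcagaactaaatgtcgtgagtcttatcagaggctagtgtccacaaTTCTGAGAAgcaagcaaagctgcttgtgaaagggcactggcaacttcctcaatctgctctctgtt
Jak2: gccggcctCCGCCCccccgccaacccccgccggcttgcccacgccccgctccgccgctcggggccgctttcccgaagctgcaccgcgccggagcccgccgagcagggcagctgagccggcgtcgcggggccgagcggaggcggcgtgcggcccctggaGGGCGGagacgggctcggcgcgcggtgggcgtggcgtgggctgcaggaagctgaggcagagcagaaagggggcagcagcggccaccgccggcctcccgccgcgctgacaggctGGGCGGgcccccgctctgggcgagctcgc
Ptpn6: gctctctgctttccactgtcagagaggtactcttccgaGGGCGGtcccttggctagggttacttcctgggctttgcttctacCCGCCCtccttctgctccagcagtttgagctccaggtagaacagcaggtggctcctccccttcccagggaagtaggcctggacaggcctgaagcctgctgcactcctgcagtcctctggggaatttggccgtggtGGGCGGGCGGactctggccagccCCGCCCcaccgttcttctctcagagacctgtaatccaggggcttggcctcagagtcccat

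The STAT motif, which reads the same on both strands, was in 1 of the 10 windows of these genes, that of Csf2rb2, at bases 236 to 244 of the window as TTCTGAGAA. It was in 8.29% of all 32817 windows. The GC box was found 7 times in Il3ra, 5 times in Ptpn6 and 3 times in Jak2, counting matches that overlap each other. It was in 7 of the 10 windows of these genes, each of a different gene, against 35.6% of all windows. The ETS motif CCGGAA was in 2 windows, that of Ptpn11 and 1 of those of Stat5b, against 14.9% of all. The GATA motif AGATAA was in 0, against 11.2%. In the sequences shown, GC boxes share bases with each other in Il3ra and Ptpn6, and no match to one motif overlaps a match to a different one. These matches are a description of letters and not of bound sites.

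The receptor chains did not differ together. Il3ra had the most negative difference of the 10 genes, and Csf2rb2 was also lower with IL-3, whereas Csf2rb was nearly level. For Il3ra, the IL-3-binding alpha chain, the deposited value was -0.27 with IL-3 and 0.16 without, a difference of -0.43 that corresponds to 1.34-fold lower with IL-3. That difference was 2.95 times the probe set SD and lay at percentile 4.95 of all genes. For Csf2rb2, the beta chain specific to IL-3, the values were -0.04 with IL-3 and 0.23 without, a difference of -0.27 (1.21-fold lower, percentile 9.36). For Csf2rb, the shared beta chain, they were 0.08 with IL-3 and 0.02 without. Its difference of 0.06 was within the probe set SD and at percentile 55.7. In bulk RNA, fewer cells of a type and less RNA per cell cannot be told apart.

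**Figure D1:**
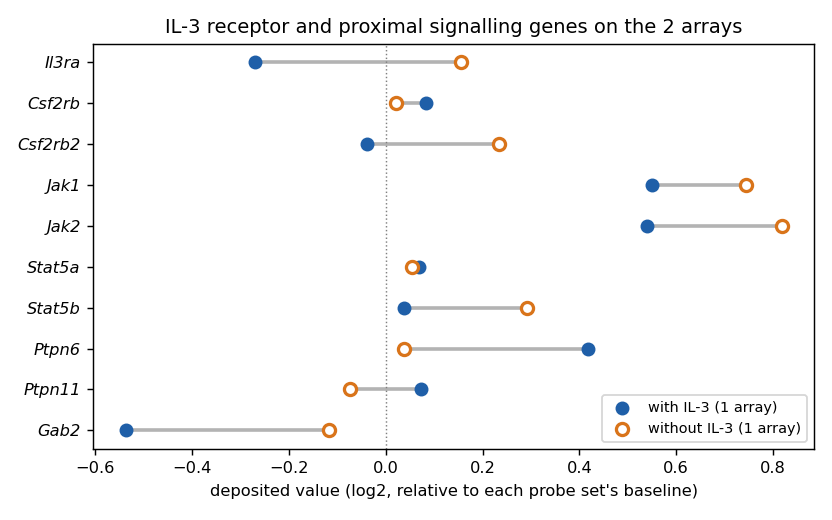
Deposited values of the 10 genes on the array with IL-3 (filled) and the array without IL-3 (open), as log2 relative to each probe set's own baseline, with a line joining the 2 arrays. The gaps of Il3ra, Gab2 and Ptpn6 are the widest, at -0.43, -0.42 and 0.38, and the points of Stat5a and Csf2rb nearly coincide.

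A contrast between 2 genes on the same arrays does not depend on a shift of a whole array. The difference of Il3ra minus that of Csf2rb was -0.49. That gap was 2.39 times the SD of the gap between 2 probe sets of 1 gene, which follows from the probe set SD and is 0.20. Between Csf2rb2 and Csf2rb the gap was -0.33, or 1.64 times that SD, and between Il3ra and Csf2rb2 it was -0.15, or 0.75 times. Csf2rb and Csf2rb2 are adjacent genes with highly similar sequences, so their probe sets may share signal and the gap between them is uncertain. The probe sequences were not used here.

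Of the kinases, Jak2 passed 1.2-fold on the lower side and Jak1 did not. Jak2, the kinase bound to the beta chain, had values of 0.54 with IL-3 and 0.82 without, a difference of -0.28 (1.21-fold lower, percentile 9.24). Jak1, which serves many other cytokine receptors, had values of 0.55 and 0.74, a difference of -0.20 (1.15-fold lower, percentile 13.3). The difference of Jak2 minus that of Jak1 was -0.08, which in size was 0.40 times the SD between 2 probe sets. Both had the highest mean values of the 10 relative to their baselines, a range in which genes at large scattered more; this is a measure of scatter and not of abundance. When all genes were ranked by mean value into 4 bins of equal size, the robust spread was 0.14, 0.10, 0.18 and 0.42 from bin 1 to bin 4. Jak1 and Jak2 fell in bin 4, at percentiles 23.5 and 18.5 within it. Within its own bin, Il3ra was at percentile 1.22 of bin 2 and Gab2 at percentile 2.83 of bin 1.

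**Figure D2:**
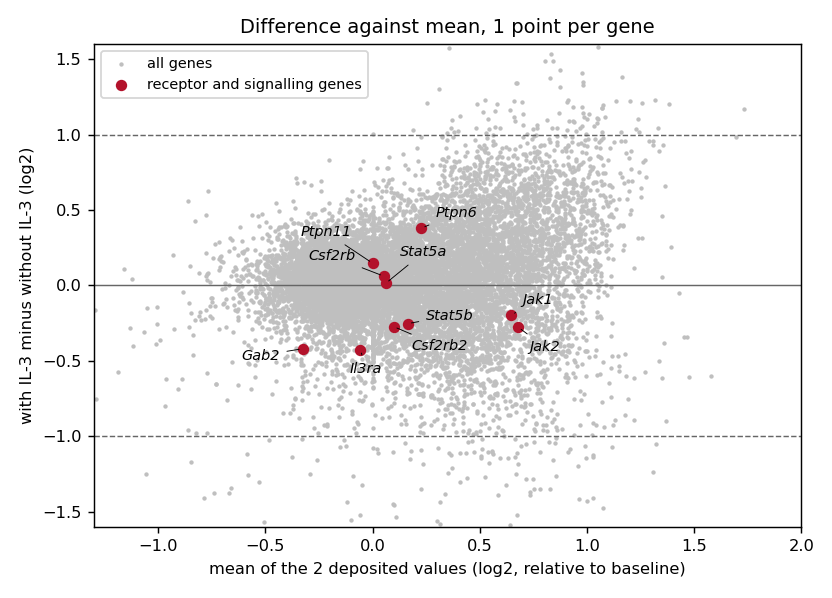
Difference between the arrays (with IL-3 minus without IL-3, log2) against the mean of both deposited values, 1 point per gene, with the 10 genes in red and dashed lines at 2-fold; 32 of 19935 genes lie outside the axes. Il3ra and Gab2 sit at the lower edge of the narrow part of the cloud, whereas Jak1 and Jak2 sit within its wide part.

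Of the STAT5 genes, adjacent on chromosome 11, neither passed 1.2-fold, and Stat5a was level. Stat5a read 0.07 with IL-3 and 0.05 without, a difference of 0.01 (percentile 43.4). Stat5b, whose product shares most of its sequence and targets with that of Stat5a, read 0.04 with IL-3 and 0.29 without, a difference of -0.25 (1.19-fold lower, percentile 10.3). The gap between the pair was -0.27, or 1.31 times the SD between 2 probe sets. Stat3, the next gene along, read 0.16 and 0.40, a difference of -0.23.

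Of the phosphatases, Ptpn6 passed 1.2-fold on the higher side and Ptpn11 did not, and the adaptor Gab2 passed it on the lower side. Ptpn6 encodes SHP1, which dephosphorylates cytokine receptors and JAKs and so limits their signal. Its values were 0.42 with IL-3 and 0.04 without, a difference of 0.38 (1.30-fold higher, percentile 91.8) and the highest of the 10 genes. Ptpn11 encodes SHP2, a phosphatase that promotes RAS signalling. Its values were 0.07 with IL-3 and -0.07 without, a difference of 0.15 (percentile 73.5), about the size of the probe set SD. These values were equal and opposite within 1e-05, as in 6.11% of probe sets, which shows that the baseline for Ptpn11 lay midway between the 2 arrays. Gab2, the docking protein that links the beta chain and BCR-ABL to SHP2 and PI3K, read -0.54 with IL-3 and -0.12 without, a difference of -0.42 (1.34-fold lower, percentile 5.09). Gab2 was the 1 gene of the 10 with values below 0 on both arrays.

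Counted together, 4 of the 10 genes were lower with IL-3 by 1.2-fold or more (Il3ra, Csf2rb2, Jak2 and Gab2), where 9.83% of all genes were. Higher by 1.2-fold or more was 1 of the 10 (Ptpn6), where 14.0% of all genes were. At 1.5-fold 0 of the 10 passed in either direction, against 3.52% of all genes higher and 2.71% lower. At 2-fold 0 of the 10 passed, against 0.441% of all genes higher and 0.657% lower. Differences were below 0 in 6 of the 10, against 40.1% of all genes, and above 0 in 4, against 59.8%, and the median of the 10 was -0.22 against 0.04. The mean was -0.12. The genes were chosen with earlier results of these arrays known, so these shares are a description. The split over all genes depended on scaling: after a loess trend on the mean value was subtracted, 10.1% were at least 1.2-fold higher and 12.3% lower, with 0.145% and 1.03% at 2-fold. Quantile normalization gave 0.311% and 0.808% at 2-fold.

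With 2 arrays, a gene's pattern is a single difference, and many genes share it. Within 0.02 of the difference of Il3ra lay 161 other genes, and within 0.02 of that of Csf2rb lay 2017, the fewest and the most for any of the 10.

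The wider pathway was read from 9 further gene lists. The cytokines that use the shared beta chain and their other alpha chains stayed close together: all 5 were measured, 0 reached 1.2-fold, and the median was 0.11. Il3 itself differed by -0.02, Csf2, which encodes GM-CSF, by 0.15, and Il5 by 0.18. The partner alpha chains Csf2ra and Il5ra differed by 0.04 and 0.11, beside -0.43 for Il3ra. As the values carry no expression level, it is not known whether these 5 genes were expressed in the cells. Of the other JAKs and STATs, 5 of 7 were measured, with a median of -0.07. Stat2, which acts in the type I interferon response, was 1.24-fold lower (-0.15 with IL-3, 0.15 without) and the other 4 were within 1.2-fold.

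Among receptors for other haematopoietic cytokines, 22 of 24 were measured, with a median of -0.06 (-0.25 when both arrays had to be at or above their median). That filter left only Il2rb, Il10rb, Ifngr1, Ifngr2 and Ifnar1, and -0.25 is the difference of Il10rb. In the unfiltered list 7 passed 1.2-fold on the lower side and 1 on the higher side, against 9.83% and 14.0% of all genes. Ifngr1, the ligand-binding chain of the interferon gamma receptor, was 2.43-fold lower with IL-3 (0.11 against 1.39). The type I interferon receptor chains Ifnar2 and Ifnar1 were 1.41-fold and 1.27-fold lower, and the erythropoietin receptor gene Epor 1.26-fold lower. Il2rb, the beta chain of the receptors for IL-2 and IL-15, was 1.89-fold higher (1.21 against 0.29), and Csf3r, the G-CSF receptor, differed by 0.25. Next to these receptors, the difference of Il3ra was between those of Ifnar2 (-0.49) and Ifnar1 (-0.35).

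The other GAB genes were lower along with Gab2. In the list of adaptors and the RAS to ERK route, 15 of 20 were measured. Past 1.2-fold were 3 on the lower side and 2 on the higher side, against 9.83% and 14.0% of all genes. The median of -0.05 was -0.12 after quantile normalization and -0.18 after loess subtraction. Gab3, a GAB protein of haematopoietic cells, was 2.59-fold lower with IL-3 (-1.36 against 0.02), and Gab1 was 1.51-fold lower (-0.47 against 0.13). Sos2, a RAS exchange factor, was 1.35-fold lower. Grb2, the adaptor through which GAB2 reaches activated receptors, was 1.38-fold higher (0.44 against -0.02), and Map2k1, the kinase MEK1, was 1.35-fold higher.

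Genes of the PI3K and AKT route went in both directions. Of 16, 14 were measured, with a median of -0.08. Past 1.2-fold were 3 on the lower side and 2 on the higher side, against 9.83% and 14.0% of all genes. Pik3r1, the regulatory subunit of PI3K, was 1.52-fold lower with IL-3 (0.37 against 0.98) and Pik3r5 1.39-fold lower. Mtor was 1.25-fold higher and its partner Rptor 1.21-fold higher, whereas Rictor, which defines the other mTOR complex, was 1.22-fold lower.

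The listed negative regulators of cytokine signalling other than Ptpn6 were mostly below 0. All 13 were measured, 9 of them below 0, with a median of -0.16 that was -0.27 after loess subtraction. It was -0.01 when both arrays had to be at or above their median, a filter that drops Ptprc, Cblb, Inpp5d and Pias3, all below 0. In the unfiltered list 4 passed 1.2-fold on the lower side and 0 on the higher side, against 9.83% and 14.0% of all genes. The list leaves out the negative regulators Socs1, Socs2, Socs3 and Cish, which were placed among the STAT5 targets. These were above 0, at 0.45, 0.21, 0.24 and 0.08, and Socs1 was 1.37-fold higher. Socs2 and Socs3 had 2 probe sets each, and the values given are those of 1 of them. Ptprc, which encodes the phosphatase CD45, was 1.66-fold lower with IL-3 (-0.13 against 0.60). Cblb, a ubiquitin ligase, was 1.58-fold lower, Inpp5d, the lipid phosphatase SHIP1, 1.44-fold lower, and Pias1, a SUMO ligase, 1.32-fold lower. Among SRC and TEC family and related kinases, 9 of 12 were measured, with a median of -0.08 (-0.28 under that filter). The filter left only Fyn, Btk and Tec, and -0.28 is the difference of Fyn. Without it 4 were at least 1.2-fold lower, against 9.83% of all genes. Syk was 1.63-fold, Fes 1.42-fold and Tec 1.35-fold lower, and Fgr differed by 0.23.

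Of Bcr and Abl1, the parent genes of the fusion, and the ABL relative Abl2, 1 of 3 was at least 1.2-fold lower, against 9.83% of all genes. Bcr was 1.51-fold lower with IL-3 (-0.37 against 0.23), Abl1 differed by -0.26 and Abl2 by -0.18, and the median was -0.26. Probe sets for mouse Bcr and Abl1 may also read the introduced fusion, which cannot be separated here. The STAT5 target list, which lies beneath Stat5a and Stat5b, had a median of 0.21 over 13 genes. It was 0.11 after loess subtraction and 0.16 with the mean of the probe sets of a gene. In it 5 passed 1.2-fold on the higher side and 1 on the lower side, against 14.0% and 9.83% of all genes. The survival kinase genes Pim2 and Pim1 differed by 0.85 and 0.75 and the cytokine gene Osm by -1.21, beside 0.01 for Stat5a and -0.25 for Stat5b.

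**Figure D3:**
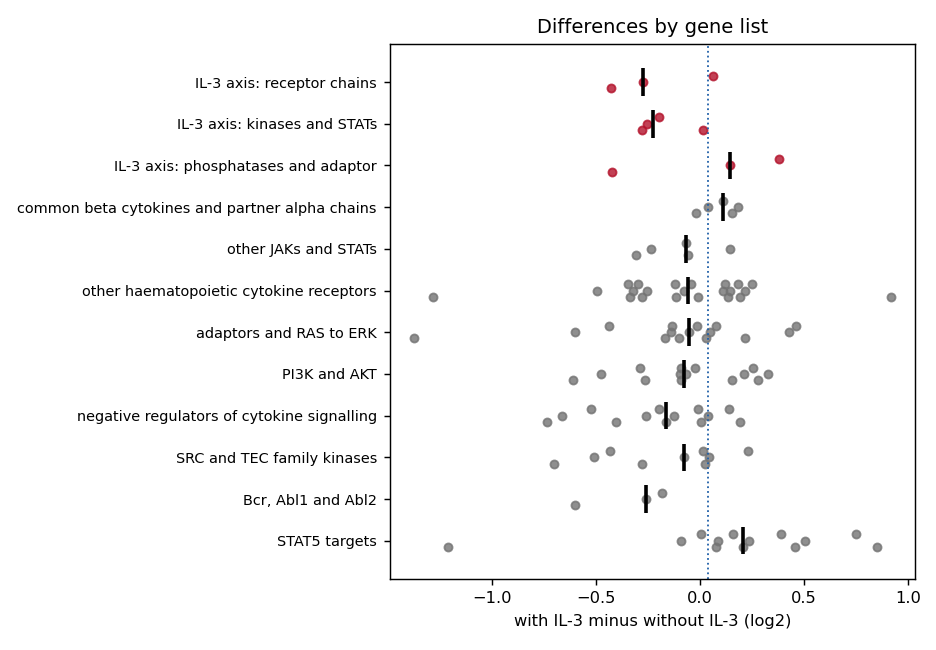
Difference between the arrays (with IL-3 minus without IL-3, log2) for each measured gene of the lists, 1 point per gene, with the vertical offset of points only for legibility; black bars are list medians and the dotted line is the median of all genes (0.04). The kinase and STAT genes and the negative regulators lie mostly left of the dotted line, and STAT5 targets mostly right of it.

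Markers of other cell types differed between the arrays as well. All 10 mast cell and basophil markers were measured, and 5 passed 1.2-fold on the lower side, against 9.83% of all genes. Their summed value was -2.05 with IL-3 and 4.12 without, over all 10. Differences were below 0 in 7 of them, with Fcer1a lowest at -2.46, and above 0 in 3, with Tpsb2 highest at 0.19. Of the 10 granulocyte markers, 5 were at least 2-fold lower, against 0.657% of all genes, and the sums were -7.34 and 3.06. Of the granulocyte markers 7 had a difference below 0 and 3 above, among them S100a9 and Mpo at 0.38 and 0.17. The sums were -0.18 and -0.43 for 12 of 13 B-lineage markers and 0.16 and 0.78 for 8 macrophage markers. They were -0.66 and -0.42 for 6 of 8 T cell markers, and 0.19 and 0.48 for 4 of 7 erythroid markers. Single genes weighed on these sums. Of the T cell markers 5 had a difference above 0 and 1 below, Cd3g at -0.80. The macrophage markers had 4 above 0 and 4 below, with Adgre1 at -0.79. As sums of baseline-relative values these do not show which markers are absent. Il3ra, Ptprc and Syk are also expressed in mast cells and basophils. The part of these marker differences in the results above was not tested.

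Of the 10 genes, 9 kept their sign under every scaling, probe set choice, log reading and filter in which they were measured. Stat5a, with its difference of 0.01, turned to -0.0006 after median centring. Jak1 and Jak2 depended most on scaling: their differences became -0.35 and -0.45 after the loess trend was subtracted.

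**Figure D4:**
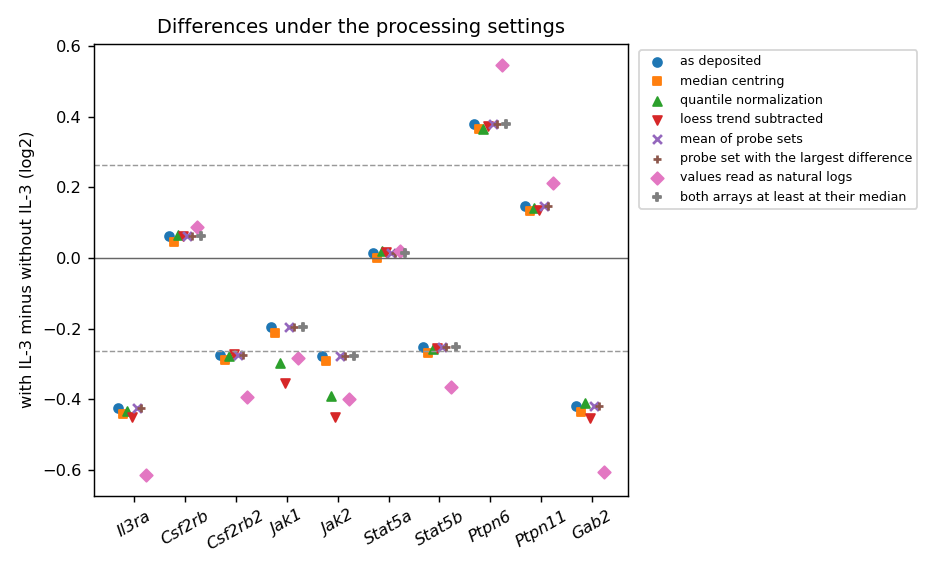
Difference between the arrays (with IL-3 minus without IL-3, log2) for the 10 genes under each processing setting, 1 symbol per setting, with dashed lines at 1.2-fold. Ptpn6 stays above the upper line in every setting. Il3ra, Gab2, Csf2rb2 and Jak2 stay below the lower line in every setting in which they were measured. Jak1 crosses the lower line after quantile normalization, loess subtraction and a natural-log reading, and Stat5b after median centring and a natural-log reading.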

How the data were processed

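RNA of the 2 samples was labelled with biotin as sense-strand cDNA and hybridised to mouse Gene 1.0 ST arrays, per the labels' protocols. The authors deposited 28815 probe sets with 1 processed log2 value on each array. The log base (taken as 2), summarisation, normalization and origin of the baseline were not given in the sources used here. Groups came from the sample titles. The platform annotation gave 1 gene symbol for 21780 probe sets, several for 1605 and none for 5430. For genes with several probe sets, the probe set whose 2 values had the highest mean was taken. All 10 gene identifiers matched the same symbol in the RefSeq table of GRCm38.p6, which was also used for which genes neighbour each other.

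Differences, folds, percentiles among all genes and motif matches were computed in Python 3.11.15 with pandas 2.3.3, and the loess trend (span 0.3) with statsmodels 0.14.6. The calculation was tested on simulated data. No filter was applied, and no test was possible with 1 array per condition. The genes named are the 10 and, in each other list, up to 4 with the largest differences in each direction. Genes left or dropped by the filter are also named where a list median depended on them. The genes and lists were chosen with earlier results of these data known. Alternatives were median centring, quantile normalization, loess subtraction, the mean or the most different probe set of a gene, a natural-log reading, and a filter requiring both arrays to reach their median.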

Additional observations from a re-analysis of the deposited data

How the results depend on the processing

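The count of genes at least 1.2-fold lower moved by over 1.5 times under 1 alternative. With a filter that required both arrays to reach their median, 6 of the 10 genes remained measured and 1 (Jak2) was at least 1.2-fold lower in place of 4, where 13.3% of the 8376 genes left were lower by that much. That filter drops Il3ra, Csf2rb2, Gab2 and Ptpn11, whose values are low on an array relative to their baseline, so it selects partly on the difference itself. The count was 5 after median centring, with Stat5b added (10.4% of all genes), and 5 after quantile normalization (11.2%) or loess subtraction (12.3%), with Jak1 added. It was 6 when the values were read as natural logs (14.3%). Under every alternative 1 gene was at least 1.2-fold higher, where the share of all genes ran from 10.1% to 24.6%. At 2-fold 0 of the 10 passed under any of them, where 0.145% to 2.10% of all genes were higher and 0.573% to 1.88% lower. List medians also moved, as given beside the lists other than the markers. For the cytokines that use the shared beta chain and their alpha chains, the median was -0.02 under the same filter, in place of 0.11. Of these genes Il3 alone passed the filter, so that value is its own difference. Medians of the granulocyte, mast cell and B-lineage markers were -0.002, -0.21 and -0.24 under the filter, in place of -0.57, -0.37 and 0.06. Ltf was the only granulocyte marker left and Gata2 the only mast cell marker. The median of the 10 lay between -0.32 and -0.22 in the settings with all 10 measured. The 6 genes left by the filter had a median of -0.09. Choosing another probe set changed none of the 10, since each had 1. No paired analysis was possible because each condition had 1 array, and for the same reason no array could be left out.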

Other observations

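Genes next to the 10 on their chromosomes were read as well, a choice made after the values were seen. Of the nearest 2 protein-coding genes on each side, 31 outside the list were measured, with a median difference of 0.02. At least 1.2-fold lower were 4 and at least 1.2-fold higher were 4, near the 9.83% and 14.0% of all genes. Ak4, an adenylate kinase gene beside Jak1, had the highest difference (1.06 with IL-3 against 0.06 without), where Jak1 differed by -0.20. Ncf4, a subunit gene of the phagocyte NADPH oxidase beside Csf2rb2, had the lowest, at -0.39 (-0.19 against 0.19). Beside Ptpn6, the prohibitin gene Phb2 and the ribosome biogenesis gene Emg1 differed by 0.43 and 0.66 on one side, and Grcc10 and Atn1 by -0.04 and 0.05 on the other, where Ptpn6 differed by 0.38.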
